A study of Mus musculus with 9 samples.

Results

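The untreated RAW 264.7 macrophages were the 3 control libraries (control 1, 2 and 3) of a series of 9, chosen by their label as untreated cells, and the 6 libraries of cells given lipid emulsion particles were not used. RAW 264.7 is an established mouse macrophage line, derived from a tumour that Abelson murine leukaemia virus induced in a male BALB/c mouse, and it grows without added growth factor. The cells carried no introduced genetic change by their labels, were kept in DMEM with serum and antibiotics, and were collected alongside the cells of the 6 h exposure. The study's methods describe biological and technical triplicates and the pooling, within 1 experiment, of the samples of a condition. They do not say outright which of these the 3 libraries are, so that the spread may be between experiments or technical. No test was possible with one group of 3 libraries, and none was made. The question was which lineage, receptor, lipid-handling and immune genes the cells express strongly, weakly or not at all before any treatment.

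Macrophages are phagocytes of the myeloid lineage whose identity rests on transcription factors of the ETS, C/EBP, IRF and MAF families and on survival signals through the receptor CSF1R. They read microbes through Toll-like receptors and cytosolic sensors, take up lipoproteins, dying cells and opsonized particles through dedicated receptors, and break the cargo down in lysosomes. Lipids released in the lysosome are exported, oxidized, or re-esterified and stored in droplets, under the control of the nuclear receptors LXR and PPAR and of the SREBP transcription factors.

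The 3 libraries held 22629998, 22617191 and 22856792 estimated counts. Values are given as cpm, counts per 1000000 counts of the library, in the order control 1, 2 and 3. Because a long transcript gives more fragments, genes were set against each other only by a per-length level, the count divided by the transcript length and scaled to a sum of 1000000 per library, which is given as mean ± SD (n = 3 libraries). A level of at least 100 was called strong, 10 to 100 intermediate and under 10 weak, and a gene with at most 3 counts in every library was called not detected. A count of 3 corresponds to 0.131 to 0.133 cpm, which is the upper limit that a count of 0 allows, for counting error alone. Of 21809 protein-coding genes, 1603 (7.35%) were strong, 6096 (28.0%) intermediate, 4746 (21.8%) weak and 9364 (42.9%) not detected, with a median level of 17.5 among those above the limit. These shares are the background for the counts of each list. Of 673 different genes in 51 lists of known function, 152 were strong, 177 intermediate, 169 weak and 175 not detected.

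**Figure D1:**
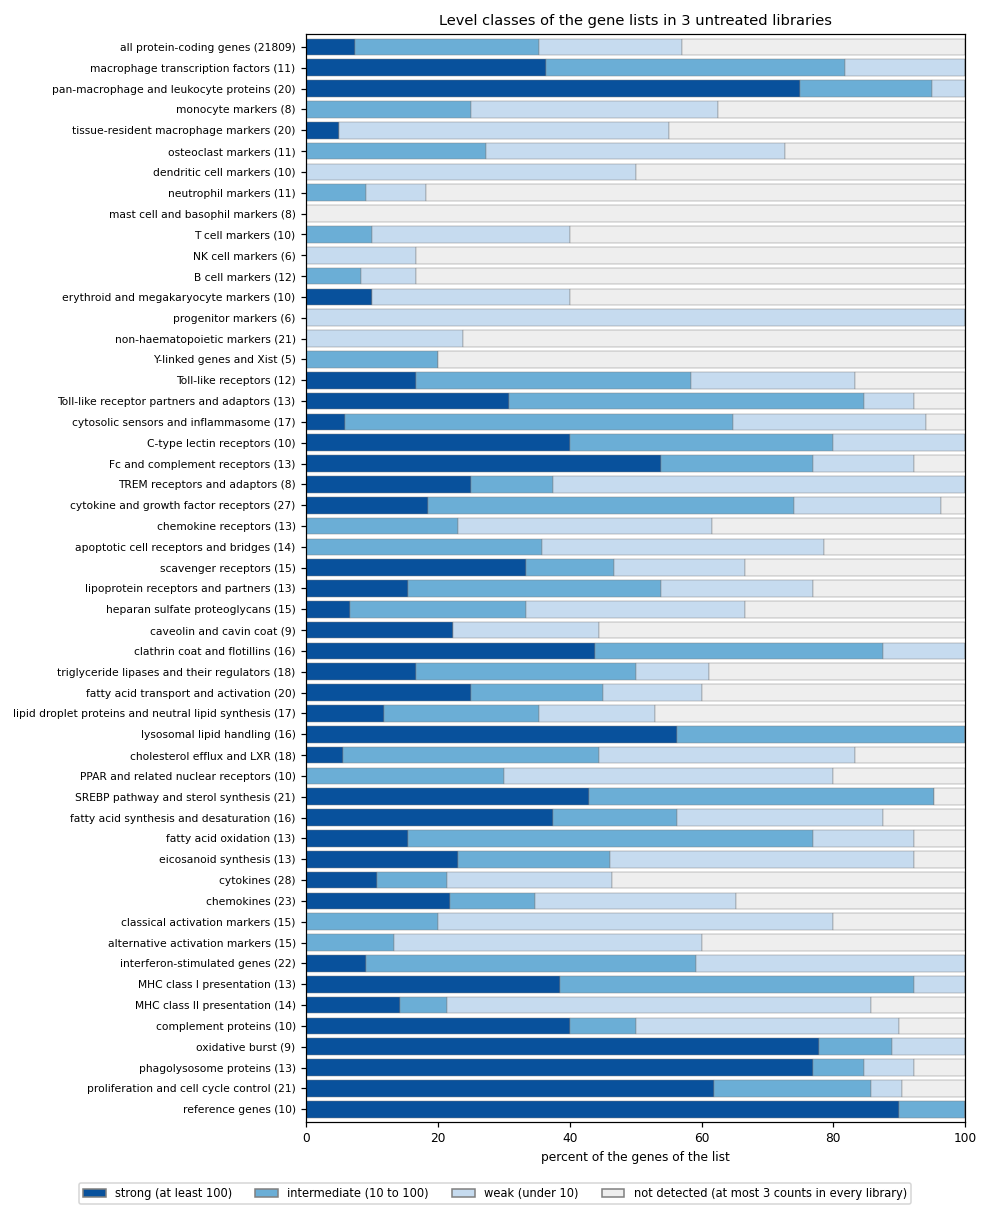
Share of each gene list (vertical axis, number of genes in brackets) in the strong, intermediate, weak and not detected classes, in percent, with all 21809 protein-coding genes in the top bar. The bars of pan-macrophage genes, oxidative burst and phagolysosome are mostly strong, whereas those of mast cell, neutrophil and B cell markers are mostly not detected.

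Control 3 stood apart from the other two libraries. Differences between control 1 and 2 were 3.40 times what counting error alone gives (mean squared difference over 12323 genes), against 13.4 times for control 1 and 3 and 14.5 times for control 2 and 3. The medians of the same ratio were 0.786, 2.41 and 2.54, where counting error alone gives 0.455, and each library was counted as 1 sample. The common coefficient of variation was 8.32% over the 3 libraries and 3.35% without control 3. Among 8729 genes at 10 cpm or more, 27 protein-coding genes differed over 2-fold between libraries after TMM scaling, and control 3 was the highest library in 21 of them and the lowest in 6. *Tent5c*, a poly(A) polymerase, had 32.7, 32.5 and 100.2 cpm. *Traf1* and *Bcl3*, which encode regulators of NF-κB signalling, had 7.07, 6.94 and 19.8 cpm and 7.51, 7.43 and 15.8 cpm, and *Relb*, an NF-κB subunit, had 17.3, 15.7 and 30.7 cpm. *Il7r*, the interleukin receptor chain best known from lymphocytes, had 28.5, 26.9 and 76.2 cpm. In each of these 5 genes control 1 and 2 lay close together and control 3 was high, and *Bcl3* and *Relb* were named after their values were seen. Among 426 list genes at 1 cpm or more, control 3 exceeded the mean of the other 2 libraries by over 1.5 times in 21 and fell short of it by as much in 10, whereas control 1 and 2 differed that far in 5. The labels give no technical record that separates control 3. For some of the genes in which it differed, though not for all, the level without it is given as well.

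**Figure D2:**
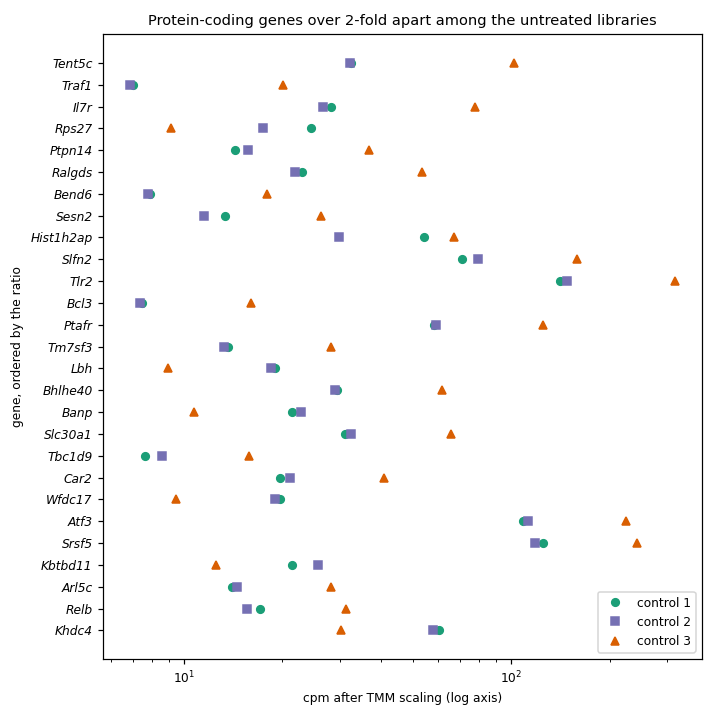
Protein-coding genes of at least 10 cpm whose highest library exceeded the lowest by over 2-fold (vertical axis), with cpm after TMM scaling in each untreated library (horizontal log axis). Control 3 (triangles) is the highest library in 21 of the 27 genes and the lowest in 6, while control 1 and 2 lie close together for most.

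All 11 macrophage transcription factors were above the detection limit, 4 of them strong and 5 intermediate. *Irf5*, a factor of the inflammatory response, had 367, 354 and 352 cpm and a level of 296 ± 6.7. *Spi1*, which encodes PU.1, the ETS factor needed for the myeloid lineage, had 314, 282 and 312 cpm and a level of 269 ± 15.5. Their libraries did not overlap, so *Irf5* ranked above *Spi1* by level. *Cebpb*, a C/EBP factor of inflammatory gene expression, had 85, 75.1 and 115 cpm, with control 3 high. The levels of *Cebpb* (110.4 ± 24.9) and *Irf8* (99.7 ± 6.58), a factor of monocyte development, overlapped. Without control 3, *Cebpb* had a level of 96.4 and *Irf8* one of 103, each then on the other side of the limit of 100. *Zeb2* (77.9 ± 9.38), *Maf* (45.2 ± 10.6), *Runx1* (37.7 ± 0.255) and *Mitf* (27.9 ± 0.832) had intermediate levels. *Cebpa*, a factor of early myeloid commitment, and *Klf4*, a monocyte factor, were weak at levels of 6.01 ± 0.522 and 4.99 ± 0.393.

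Of 20 pan-macrophage and leukocyte genes, 15 were strong, 4 intermediate and 1 weak, and the median level of the list was 602. *Lyz2*, the macrophage lysozyme, had 2459, 2575 and 2545 cpm and a level of 3476 ± 88.5, above all others in the list. *Cd68* (1562 ± 50), a lysosomal glycoprotein, and the signalling adaptors *Fcer1g* (1547 ± 113) and *Tyrobp* (1285 ± 74.5) followed by level, with overlapping libraries for *Cd68* and *Fcer1g*. *Csf1r*, the receptor for the macrophage growth factor, had 1439, 1462 and 1316 cpm and a level of 594 ± 33.9. *Itgam*, the integrin chain CD11b, had 633, 644 and 583 cpm and *Ptprc*, which encodes the leukocyte antigen CD45, 471, 491 and 513 cpm. The markers F4/80 and MerTK, by which tissue macrophages are commonly sorted, were at the low end: *Adgre1*, which encodes F4/80, had 24.4, 23.1 and 18.3 cpm and a level of 12.5 ± 1.85, and *Mertk* had 23.1, 23.8 and 17.9 cpm and a level of 9.08 ± 1.38. *Fcgr1*, the high-affinity IgG receptor CD64, had 80, 78.5 and 60.5 cpm. In these last 3 genes control 3 was the lowest library. Set against the label of the line as macrophages, 19 of the 20 genes were strong or intermediate, compared with 35.3% of all protein-coding genes.

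**Figure D3:**
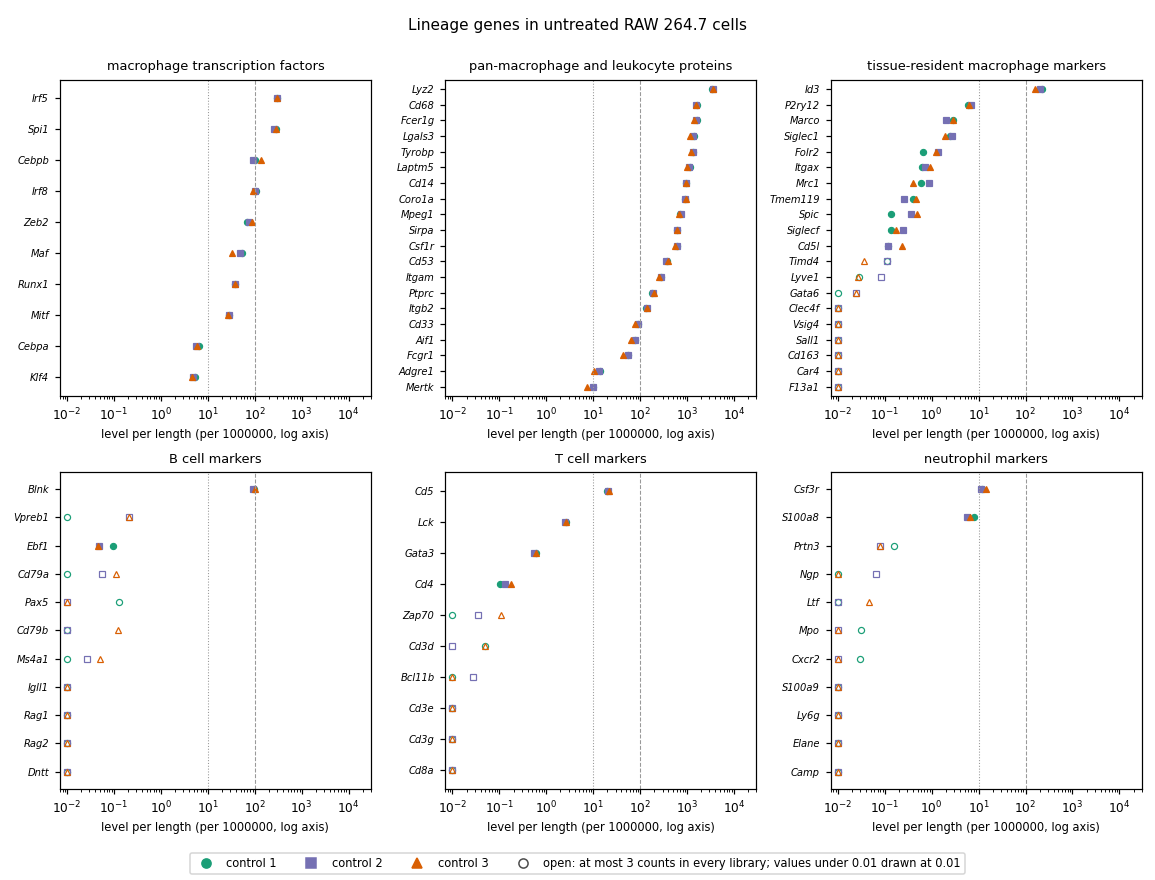
Per-length level (per 1000000, log axis) of lineage genes in the 3 untreated libraries, 1 symbol per library, ordered by mean level; dashed and dotted lines mark levels of 100 and 10. Macrophage factors and pan-macrophage genes lie mostly to the right of these lines, and most B cell, T cell and neutrophil markers are open symbols near the left edge.

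Promoters are shown for *Itgam* and *Fcgr1*, which are among the list genes whose promoter holds the ETS core named below. List genes without it are not shown. PU.1, whose gene was strong here, is known to act on myeloid promoters of this kind, but its action on these genes was not tested. The sequences are from RefSeq on GRCm38.p6 and cover 250 bases before to 50 after the start of transcription, 5′ to 3′ on the gene's strand, and capitals mark the ETS core GAGGAAG in either orientation. That of *Itgam* lies at chr7:128062390-128062689 on the plus strand and that of *Fcgr1* at chr3:96293920-96294219 on the minus strand.
Itgam: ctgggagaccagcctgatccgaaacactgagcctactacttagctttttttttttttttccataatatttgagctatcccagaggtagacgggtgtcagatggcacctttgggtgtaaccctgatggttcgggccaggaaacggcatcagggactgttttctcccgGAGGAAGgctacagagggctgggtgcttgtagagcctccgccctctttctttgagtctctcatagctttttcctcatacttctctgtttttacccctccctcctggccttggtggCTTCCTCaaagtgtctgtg
Fcgr1: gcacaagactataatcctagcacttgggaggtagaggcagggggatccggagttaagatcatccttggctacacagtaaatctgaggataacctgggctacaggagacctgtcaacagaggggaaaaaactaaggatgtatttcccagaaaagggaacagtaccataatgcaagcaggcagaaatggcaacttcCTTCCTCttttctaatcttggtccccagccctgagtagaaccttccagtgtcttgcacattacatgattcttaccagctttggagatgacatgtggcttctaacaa
The *Itgam* promoter held 2 matches, 84 bases before and, in the opposite orientation, 31 bases after the start, and the *Fcgr1* promoter held 1, 56 bases before the start in the opposite orientation. Of the 31 genes of the 2 macrophage lists, all above the detection limit, 22 had a promoter in the table, and the motif was in 6 (27.3%): *Itgam*, *Fcgr1*, *Cd33*, *Cd53*, *Laptm5* and *Zeb2*. By list, the motif was in 1 of 8 promoters (12.5%) of the transcription factors and in 5 of 14 (35.7%) of the pan-macrophage and leukocyte genes. It was in 15.4% of all 27025 promoters of the same length. A match is a stretch of letters and no measured binding site.

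Markers that distinguish macrophage subtypes were mostly weak or not detected, but so were most protein-coding genes (21.8% weak and 42.9% not detected). The share not detected was 37.5% of monocyte, 45% of tissue-resident, 27.3% of osteoclast and 50% of dendritic cell markers. Of 8 monocyte markers 2 were intermediate, 3 weak and 3 not detected. *Spn*, the sialoprotein CD43, had 109.7, 119 and 131 cpm, and *Cx3cr1*, the fractalkine receptor, had 57.7, 56 and 105 cpm, where control 3 was high. The level of *Cx3cr1* was 35.1 ± 13.3 over 3 libraries and 27.4 without control 3. *Ccr2*, the receptor by which monocytes leave the marrow, was weak with 9.72, 8.44 and 9.93 cpm, and *Ly6c2* and *Plac8* were not detected. Of 20 tissue-resident markers only *Id3*, a helix-loop-helix factor, was strong, with 157, 144 and 114 cpm. The weak group of 10 included the microglial receptor *P2ry12* (level 6.32 ± 0.468), the sialoadhesin gene *Siglec1* (2.33 ± 0.361) and the mannose receptor gene *Mrc1* (0.615 ± 0.236), and the 9 not detected included *Cd163*, *Vsig4*, *Clec4f*, *Timd4*, *Gata6* and *Sall1*. RAW 264.7 cells are widely used as osteoclast precursors. Of 11 osteoclast markers 3 were intermediate, 5 weak and 3 not detected. *Tnfrsf11a*, which encodes the receptor RANK, had 67.6, 64.4 and 58.7 cpm, and the master factor *Nfatc1* and the fusion gene *Dcstamp* had levels of 17.4 ± 0.699 and 11.1 ± 1.8. The protease gene *Mmp9* was weak at 4.95 ± 0.532, *Ctsk*, the bone-resorbing cathepsin K, was weak at 1.79 ± 0.332, and *Acp5* (tartrate-resistant acid phosphatase), *Calcr* and *Oscar* were not detected. Of 10 dendritic cell markers 5 were weak and 5 not detected, with *Batf3* the highest at a level of 4.15 ± 0.965.

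Genes of other lineages were mostly weak or not detected, with 4 exceptions. In bulk RNA, fewer cells of a type and less RNA per cell cannot be told apart. Of 94 genes that mark other blood lineages, progenitors and non-haematopoietic tissues, 65 were not detected, 25 weak, 3 intermediate and 1 strong, beside 42.9% not detected among all protein-coding genes. All 8 mast cell and basophil markers were not detected, as were 9 of 11 neutrophil, 5 of 6 NK cell, 10 of 12 B cell, 6 of 10 T cell, 6 of 10 erythroid and megakaryocyte, 5 of 10 dendritic cell and 16 of 21 non-haematopoietic markers. All 6 progenitor markers were above the detection limit and weak, led by the homeobox genes *Meis1* (4.15 ± 1.06) and *Hoxa9* (3.52 ± 0.66). Among those with no count in any library were *Rag1*, *Cd3e*, *Cd8a*, *Kit*, *Epcam*, *Alb* and *Col3a1*. The strong exception was *Pf4*, a chemokine of platelet granules, with 112, 111 and 102 cpm and a level of 394 ± 20.1, while the megakaryocyte genes *Gp9* and *Itga2b* had counts of 0, 0 and 0 and 5, 3 and 8. *Blnk*, an adaptor best known from B cell receptor signalling, had 99.8, 96.9 and 108 cpm and a level of 96.8 ± 5.2, whereas *Cd79a* and *Pax5* were not detected. The level of *Blnk* was 49.7 with the longest transcript and 47.1 with all exons as length. *Cd5*, a T cell surface glycoprotein, had 27.9, 28.5 and 30.8 cpm, whereas *Cd3d* and *Bcl11b* were not detected. *Csf3r*, the G-CSF receptor, had 21.3, 20.8 and 26 cpm. All 4 exceptions were above the detection limit in each library. *S100a8*, an alarmin of neutrophils, was weak at 2.12, 1.55 and 1.79 cpm, and its partner gene *S100a9* had no count.

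The line is described as male, but *Xist*, the RNA that coats the inactive X chromosome of female cells, had 169, 153 and 138 cpm and a level of 15.5 ± 1.53. *Ddx3y* and *Eif2s3y* on the Y chromosome had no count in any library, and *Kdm5d* and *Uty* had at most 1 count. Of 1160 genes placed on the Y chromosome 7 were above the detection limit, a count made after these values were seen. *Tsix*, the gene on the opposite strand of *Xist*, had at most 1 count, although without a stated strand setting reads of the 2 cannot be told apart. *Tsix* was looked at after the value of *Xist* was seen.

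The highest per-length levels among nuclear protein-coding genes belonged to iron storage, the cytoskeleton, translation and the lysosome. *Ftl1* and *Fth1*, the light and heavy chains of ferritin, had levels of 16199.5 ± 1337 and 9449 ± 686. The elongation factor gene *Eef1a1* had a mean between them at 10421 ± 246, but its libraries overlapped with those of *Fth1*. Among the 20 highest, *Actb*, *Actg1*, *Cfl1*, *Pfn1*, *Tmsb4x* and *Tuba1b* encode cytoskeletal proteins, and *Rplp1*, *Rpsa*, *Rps24* and *Rpl8* ribosomal ones. These places rest on the median length: *Rps24* had a level of 2411 ± 53.8, or 383 with the longest transcript, and *Fth1* came to 5223 with that length. From the pan-macrophage, phagolysosome and cytokine lists came *Lyz2* (3476 ± 88.5), *Ctsd*, the protease cathepsin D (5525 ± 227), and *Spp1*, which encodes the secreted phosphoprotein osteopontin (2774 ± 75.8). *Ptma* (8106 ± 279), *S100a4* (2756 ± 185), *Pkm* (2677 ± 76.5) and *Ppia* (2437 ± 42.5) made up the 20. Of 10 genes commonly used as references, 9 were strong and *Tbp* was intermediate at a level of 33.1 ± 1.4, or 6.28 with the longest transcript as length. Many ribosomal protein genes have processed pseudogenes of similar sequence, and how reads were divided between them was not tested. *Rps2*, chosen after its value was seen, had 17.8, 21 and 23.1 cpm against 1259.6, 1242 and 1339 cpm for its copy *Rps2-ps10*.

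Of the 12 Toll-like receptor genes, 2 were strong, 5 intermediate, 3 weak and 2 not detected. *Tlr13*, the receptor for bacterial ribosomal RNA, had 376, 380.2 and 453 cpm and a level of 179.7 ± 19. *Tlr2*, the receptor for bacterial lipoproteins, had 142, 149 and 310.4 cpm, so that control 3 was 2.13 times the mean of the others. Its level was 120.5 ± 57 over 3 libraries and 87.6 without control 3, which places it under the limit of 100, and it overlapped with *Tlr13*. The nucleic acid receptors *Tlr7* (80.5 ± 2.14) and *Tlr8* (51 ± 5.18) and the endotoxin receptor *Tlr4* (61.7 ± 6.19) were intermediate, with *Tlr4* and *Tlr8* overlapping. *Tlr9*, the receptor for unmethylated CpG DNA (17.6 ± 3.21), and *Tlr3*, for viral RNA (15.1 ± 0.926), were lower and overlapped with each other. *Tlr1* (8.9 ± 1.36), *Tlr6* (6.26 ± 0.457) and *Tlr5* (3.31 ± 0.306), the flagellin receptor, were weak, in that order without overlap, and *Tlr11* and *Tlr12* had no count. The co-receptor *Cd14* (942 ± 16), the decoy-like receptor *Cd180* (407 ± 6.43) and the chaperone *Unc93b1* (286 ± 5.74) were strong. *Ly96*, which encodes the *Tlr4* partner MD-2, was intermediate at a level of 27.9 ± 4.71, and the serum protein gene *Lbp* had no count. The adaptor genes had levels that ran from *Myd88* (81.9 ± 1.37) to *Tirap* (21.2 ± 3.13), *Ticam1* (12.9 ± 1.01) and *Ticam2* (2.76 ± 0.44).

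Of 17 cytosolic sensor and inflammasome genes, 1 was strong, 10 intermediate, 5 weak and 1 not detected. *Casp1*, the caspase that cleaves pro-IL-1β, had 90.6, 90.6 and 89.1 cpm and a level of 109 ± 1.2. *Aim2*, a DNA sensor, and *Gsdmd*, the pore former, had overlapping levels of 74 ± 1.7 and 72.9 ± 0.828. *Pycard*, which encodes the adaptor ASC, had 55.3, 55.6 and 50.1 cpm, and *Nlrp3* 51.3, 50.7 and 63.5 cpm. Their levels overlapped. The DNA sensing genes *Cgas* (27.7 ± 1.17) and *Tmem173*, which encodes STING (48.5 ± 1.4), were intermediate. *Nod2* (2.45 ± 0.45), *Nlrc4* (3.95 ± 0.403), *Naip5* (4.85 ± 0.32) and *Nod1* (0.469 ± 0.0733) were weak and *Mefv*, the pyrin gene, was not detected.

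Among C-type lectin receptors 4 of 10 were strong: *Clec4e* (313 ± 67.6), the receptor Mincle, and *Clec4d* (301 ± 44.4), which overlapped, then *Clec5a* (227 ± 7.16) and *Clec12a* (104 ± 8.82). With the longest transcript as length *Clec5a* had a level of 63.7 and *Clec4e* one of 129.6. *Clec7a*, the β-glucan receptor Dectin-1, was intermediate at 21.8 ± 1.49. Of 13 Fc and complement receptor genes 7 were strong, 3 intermediate, 2 weak and 1 not detected. *C3ar1*, the receptor for C3a, had 778, 769.7 and 859 cpm and a level of 337 ± 20.2. The IgG receptor *Fcgr3* (251 ± 26.9) and the inhibitory *Fcgr2b* (155 ± 32.6) were strong and *Fcgr4* (66.4 ± 8.16) intermediate, and *Vsig4*, the complement receptor of Kupffer cells, had no count. *Trem2*, a lipid-sensing receptor, had 378, 388 and 363 cpm and a level of 636 ± 22, whereas *Trem1*, which amplifies inflammatory signals, had a level of 22.2 ± 0.933. The level of *Trem2* was 175 with the longest transcript and 211 with all exons as length.

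Of 27 cytokine and growth factor receptor genes, 5 were strong, 15 intermediate, 6 weak and 1 not detected. After *Csf1r*, the strong ones were *Tnfrsf1a* (119 ± 14.3), *Tgfbr2* (118 ± 3.35), *Il10rb* (118 ± 5.61) and *Ifnar2* (105 ± 0.99). The interferon receptor chains *Ifnar1* (65.5 ± 3.24), *Ifngr2* (64.9 ± 4.09) and *Ifngr1* (27.6 ± 1.3) were intermediate. *Il4ra*, the receptor chain of alternative activation, was weak at 5.45 ± 0.175. *Il1r1*, the signalling receptor of interleukin-1, had counts of 2, 2 and 5, and *Il18r1* had counts of 2, 0 and 3. *Tnfrsf1b*, the other TNF receptor gene, had 121, 120.1 and 189 cpm, with control 3 high. Of 13 chemokine receptor genes none was strong, beside 7.35% of all protein-coding genes, a share from which 13 genes cannot be told apart. The 3 intermediate ones were *Cxcr4* (97.8 ± 18.2), *Cx3cr1* and *Cxcr3* (16.1 ± 2.99). *Ccr1*, a receptor for the chemokines of the *Ccl3* group, had counts of 5, 2 and 2, and *Ccr7*, *Ackr3*, *Ccr3*, *Cxcr1* and *Cxcr2* were not detected.

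**Figure D4:**
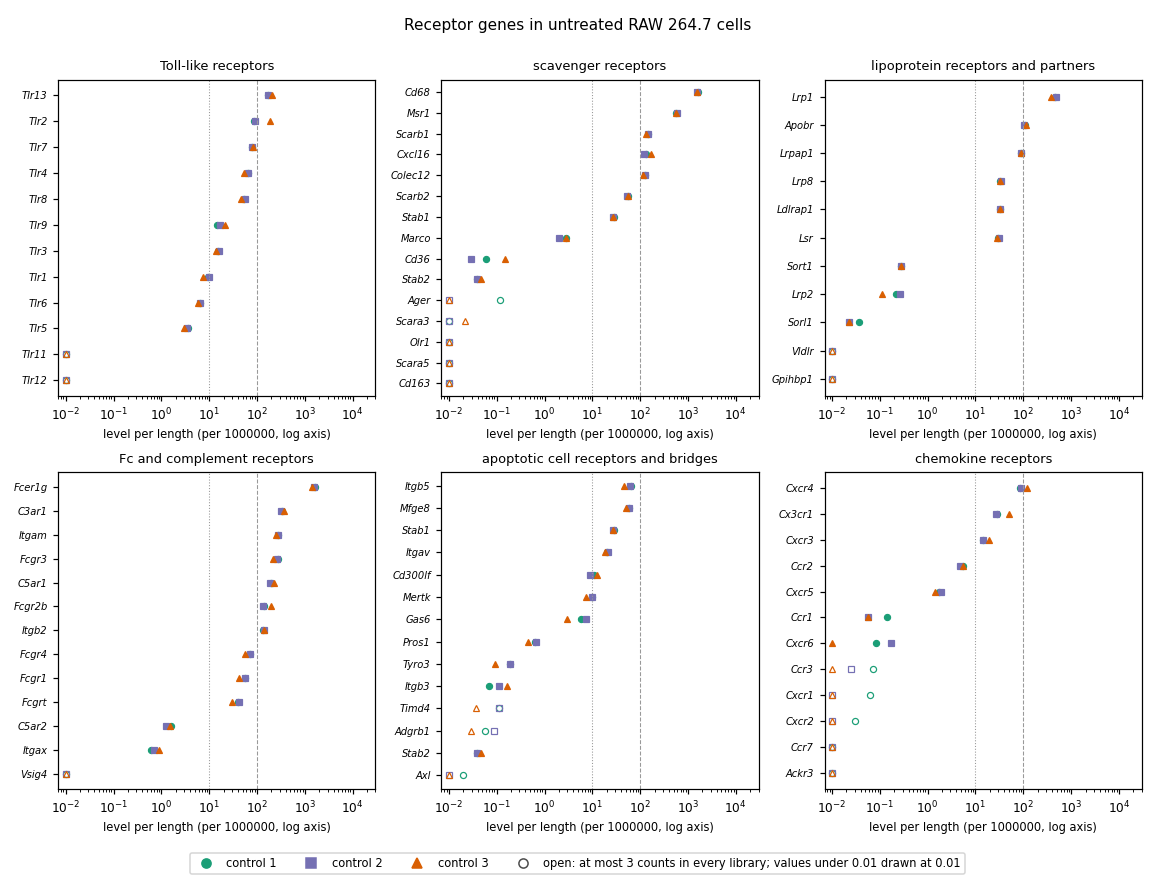
Per-length level (per 1000000, log axis) of receptor genes in the 3 untreated libraries, 1 symbol per library, ordered by mean level, with lines at 100 and 10. *Tlr2* and *Cx3cr1* show control 3 apart, *Vldlr* and *Axl* lie at or near the left edge of their panels, and *Msr1* and *Lrp1* lie to the right of the line at 100.

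Of 15 scavenger receptor genes, 5 were strong, 2 intermediate, 3 weak and 5 not detected. *Msr1*, the class A receptor for modified lipoproteins, had 798, 822 and 804 cpm and a level of 578 ± 10.4, below *Cd68* alone in the list. *Scarb1*, the HDL receptor (142 ± 8.32), and *Cxcl16*, which also binds oxidized lipoprotein (139 ± 23.6), overlapped. *Cd36*, the scavenger receptor and fatty acid translocase, had counts of 2, 1 and 5, near the detection limit, and *Marco* was weak with 3.05, 2.17 and 3.02 cpm. *Olr1*, which encodes LOX-1, *Scara5* and *Cd163* had no count. Of the 14 genes of receptors and bridging proteins for dying cells none was strong, beside 7.35% of all protein-coding genes. A list of 14 genes is too small to be told apart from that share. *Itgb5* (57.6 ± 9.23), the bridging protein gene *Mfge8* (55.5 ± 5.05), *Stab1* (27.6 ± 0.41) and *Itgav* (20 ± 1.77) were intermediate, and *Axl* had counts of 1, 0 and 0.

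Of 13 lipoprotein receptor and partner genes, 2 were strong, 5 intermediate, 3 weak and 3 not detected. *Lrp1*, the endocytic receptor for remnant lipoproteins, had 727, 776 and 612 cpm and a level of 442 ± 53.6. That level depends on the transcript length assumed, being 105 with the longest transcript and 111 with all exons as length. *Apobr*, a receptor described for triglyceride-rich lipoproteins on macrophages, had 121, 119.7 and 127 cpm and a level of 107 ± 3.4. The LRP1 chaperone gene *Lrpap1* had a level of 90.2 ± 1.37. *Lsr*, the lipolysis-stimulated receptor, was intermediate at 29.7 ± 1.08. *Vldlr* and *Gpihbp1*, the endothelial anchor of lipoprotein lipase, had no count. Heparan sulfate proteoglycans, which hold lipoproteins and lipoprotein lipase at the cell surface, were led by syndecan genes: *Sdc3* had 294, 301 and 234 cpm and *Sdc4* 95.5, 93.6 and 181 cpm, with control 3 low for the first and high for the second. The level of *Sdc4* was 90.8 ± 36.6 over 3 libraries and 69.7 without control 3. *Gpc1* (15 ± 0.271) was the only glypican of 5 above the limit, and *Hspg2*, the perlecan gene, had no count.

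The coat of caveolae was listed in part at 0. Of 9 caveolin and cavin coat genes 2 (22.2%) were strong, 2 weak and 5 (55.6%) not detected. Of all protein-coding genes 7.35% were strong and 42.9% not detected, and a list of 9 genes is too small to be told apart from these shares. *Cav2* had 77.2, 83.6 and 81.8 cpm and a level of 150.3 ± 6.43, whereas *Cav1*, the main structural caveolin, and *Cav3* had no count in any library. Whether reads of a gene listed at or near 0 were lost in quantification was not tested, for *Cav1* as for *Cd63*, *Elovl6* and *Cdkn2a*. The level of *Cav2* was 65.7 with the longest transcript and 67.4 with all exons as length, which is intermediate. *Cavin1*, the coat protein that caveolae need, had counts of 3, 3 and 4, *Cavin2* counts of 0, 0 and 1, and *Cavin3* and *Cavin4* none. *Ehd2*, the ATPase of the caveolar neck, was weak with 0.574, 0.619 and 0.744 cpm, and *Pacsin2*, a membrane-bending protein that also acts outside caveolae, had 205, 208 and 205 cpm. *Cav1* and *Cav2* are neighbours on chromosome 6, at chr6:17306335-17341452 and chr6:17281185-17289115 of GRCm38. Of 16 clathrin coat and flotillin genes 7 were strong, 7 intermediate and 2 weak, and none was under the limit. *Cltc*, the clathrin heavy chain, had 721, 751 and 699 cpm and a level of 207 ± 7.83, and the adaptor subunits *Ap2s1* (434 ± 34.2) and *Ap2m1* (248 ± 4.47) were also strong. *Dnm2*, the ubiquitous dynamin, was intermediate at 96.5 ± 3.82, against 0.147 ± 0.0636 for the neuronal *Dnm1*. *Flot1* and *Flot2* had levels of 10.4 ± 1.19 and 52.5 ± 2.41.

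Of 18 genes of triglyceride lipases and their regulators, 3 were strong, 6 intermediate, 2 weak and 7 not detected. *Lipa*, the lysosomal acid lipase, had 961, 974 and 1039.6 cpm and a level of 605 ± 25.2. *Lpl*, the secreted lipoprotein lipase, had 926, 909 and 896 cpm and a level of 401 ± 6.63. *Nceh1*, a neutral cholesterol ester hydrolase, had 443, 464 and 448 cpm and a level of 308 ± 7.96. These 3 levels did not overlap, although with all exons as length *Lpl* and *Nceh1* came to 241 and 239. *Pnpla2*, the cytosolic triglyceride lipase ATGL, was lower at 50.6 ± 1.08, with its activator gene *Abhd5* at 24.9 ± 1.4 and *Lipe*, the hormone-sensitive lipase, at 13.8 ± 1.44. *Mgll*, which cleaves monoglycerides, had counts of 0, 0 and 2, and *G0s2*, the ATGL inhibitor, and *Lipg* had none. *Angptl4*, which inhibits lipoprotein lipase, was weak with a level of 6.37 ± 0.267, and *Lmf1*, which helps the lipase to fold, was intermediate at 29.3 ± 3.21.

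All 16 genes of lysosomal lipid handling were above the limit, 9 strong and 7 intermediate, with a median level of 124. *Npc2* had 479.5, 489 and 419 cpm and *Npc1* 136, 135 and 138 cpm, the soluble and the membrane protein that pass cholesterol out of the lysosome. By level *Npc2* (254 ± 21.2) stood above *Npc1* (47.3 ± 0.479) without overlap. *Stard3*, a sterol transfer protein of late endosomes, had a level of 44.3 ± 3.26, overlapping with the channel gene *Mcoln1* (41.6 ± 1.49). *Psap* (1047 ± 58.6) and *Lamp1* (985 ± 114) were the highest of the list.

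Fatty acid transport genes split by isoform. Of 20 genes 5 were strong, 4 intermediate, 3 weak and 8 not detected. *Dbi*, the acyl-CoA binding protein (665 ± 42.7), *Fabp5* (267 ± 13.8) and the transporter *Slc27a1* (161 ± 8.18) were strong. *Fabp4*, the adipocyte and macrophage binding protein, had 6.63, 7.21 and 12.3 cpm, with control 3 high, and a level of 17.6 ± 6.28. Of the acyl-CoA synthetases *Acsl5* (144 ± 3.11) and *Acsl4* (102 ± 4.06) were strong, *Acsl3* (87.2 ± 8.27) and *Acsl1* (57.7 ± 7.16) intermediate and *Acsl6* without a count. Lipid droplet genes also differed by isoform: *Plin2*, the perilipin of non-adipose cells, had 382, 366 and 322 cpm and a level of 342 ± 29.8, *Plin3* a level of 55.3 ± 2.06, and *Plin1* and *Plin5* no count. *Soat1*, which esterifies cholesterol, had 489.6, 488 and 575 cpm and a level of 166 ± 15.7, against 2.45 ± 0.176 for *Soat2*. *Dgat1* (15.2 ± 1.04) and *Dgat2* (4.19 ± 0.742), which make triglycerides, were intermediate and weak, and *Cidea*, *Cideb* and *Cidec* had no count.

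Of 18 genes of cholesterol efflux and the LXR pathway, 1 was strong, 7 intermediate, 7 weak and 3 not detected. The exporter *Abcg1* had 186, 185 and 234 cpm and a level of 101 ± 13.9, and *Abca1* 57.7, 62.3 and 82 cpm and a level of 11.9 ± 2.27, with control 3 the highest library for both. The level of *Abcg1* was 93.3 without control 3 and 76.8 with the longest transcript as length, both under the limit of 100. Of the LXR genes, *Nr1h2* (LXRβ) had 70.3, 68.6 and 55.9 cpm and *Nr1h3* (LXRα) 3.98, 3.63 and 3.81 cpm. Their levels of 60.3 ± 7.34 and 3.89 ± 0.172 did not overlap. *Apoe*, the apolipoprotein that macrophages secrete, was weak with 1.28, 1.11 and 1.97 cpm, its neighbour genes *Apoc2* and *Apoc4* had levels of 3.29 ± 0.811 and 0.435 ± 0.163, and *Apoc1* and *Pltp* had no count. *Pparg* was weak with 1.55, 1.68 and 2.71 cpm, control 3 being high, *Ppara* had counts of 9, 3 and 1, and *Ppard* was intermediate at a level of 13.9 ± 0.572.

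**Figure D5:**
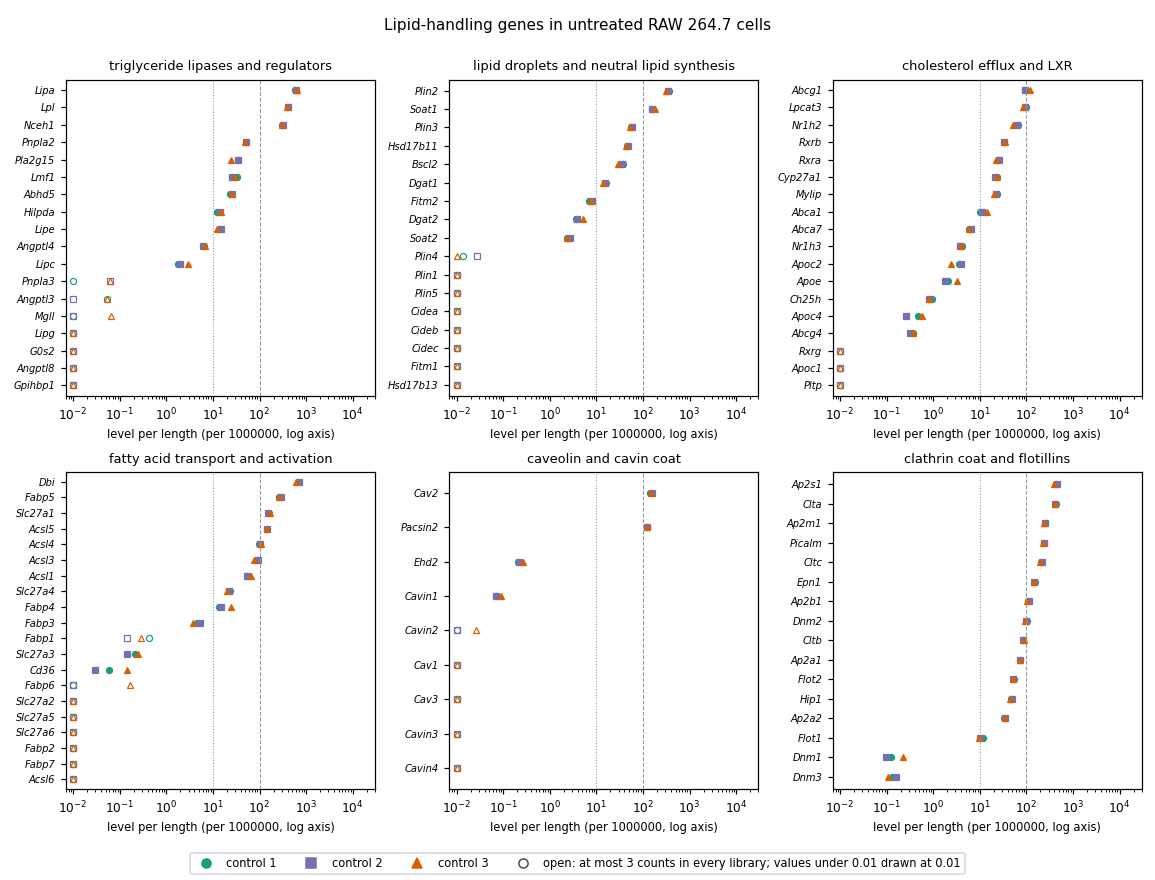
Per-length level (per 1000000, log axis) of lipid-handling genes in the 3 untreated libraries, 1 symbol per library, ordered by mean level, with lines at 100 and 10. *Lipa*, *Lpl*, *Plin2* and 7 of 16 clathrin coat and flotillin genes lie to the right of the line at 100, and *Cav1*, *Cavin3*, *Plin1*, *Pltp* and *Gpihbp1* are open symbols at the left edge.

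Of 21 genes of the SREBP pathway and sterol synthesis, regulators included, 9 were strong, 11 intermediate and 1 not detected, and the median level was 80. *Fdps*, the farnesyl diphosphate synthase, had 471, 467 and 423 cpm and a level of 627 ± 37. *Srebf2*, the factor that drives sterol synthesis, had a level of 202 ± 5.95, and *Srebf1*, the factor of fatty acid synthesis, 68.2 ± 3.96. *Dhcr7*, a reductase of the last steps of sterol synthesis, had a level of 106 ± 8.31. In fatty acid synthesis *Scd2* had 1354, 1419.97 and 1231 cpm and *Scd1* 9.9, 10.8 and 8.71 cpm, both stearoyl-CoA desaturases. Their levels of 443 ± 32.7 and 3.67 ± 0.399 did not overlap. *Acly* (199 ± 22.1), *Elovl1* (188 ± 10.4), *Fads1* (166 ± 4.54), *Fads2* (115 ± 4.74) and *Fasn* (109.9 ± 9.06) were strong, and the elongase genes *Elovl6* and *Elovl7* had no count. Fatty acid oxidation genes were mostly intermediate (8 of 13), with *Ucp2* (276 ± 5.67) and *Acadl* (151 ± 5.18) strong, *Cpt1a* at 18.1 ± 0.746 and *Pdk4* without a count. Among eicosanoid genes *Alox5ap* (355 ± 5.35), *Pla2g4a* (117 ± 4.99) and *Ptgs1* (101 ± 15.6) were strong, and *Ptgs2*, the inducible cyclooxygenase, was weak with 14.1, 17 and 10.3 cpm.

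Most cytokine genes were weak or not detected, but so were most protein-coding genes (21.8% weak and 42.9% not detected). Of 28 cytokine genes 3 were strong, 3 intermediate, 7 (25%) weak and 15 (53.6%) not detected. *Spp1* had 2138, 2192 and 2259 cpm, *Mif*, the migration inhibitory factor, 179, 178 and 177 cpm and *Tgfb1* 299, 299 and 349 cpm. *Tnf* had 27.5, 25.1 and 28.8 cpm and a level of 31.7 ± 2.14, and *Il1rn*, the interleukin-1 receptor antagonist, 17.4, 17.7 and 27.7 cpm with control 3 high. Their levels overlapped. *Il18*, which is processed by caspase-1, had 4.64, 4.64 and 5.78 cpm. *Il1b* had counts of 0, 0 and 3 and *Il6* counts of 1, 0 and 1, and *Il1a*, *Il12a*, *Il12b*, *Ifnb1*, *Csf2* and *Csf3* had none. *Il10* was weak at a level of 1.3 ± 0.583.

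Of 23 chemokine genes 5 were strong, 3 intermediate, 7 weak and 8 not detected. *Ccl9* had 625, 649 and 748 cpm and a level of 406 ± 39, *Ccl2*, which recruits monocytes, 136, 135 and 198 cpm and a level of 348 ± 80.3, and the 2 overlapped. *Ccl3* (249 ± 27.1) and *Ccl4* (209.97 ± 10.8), neighbours on chromosome 11 that recruit monocytes and T cells, followed without overlap, although with the longest transcript as length *Ccl2* and *Ccl3* came to 317 and 306. In *Ccl2* control 3 was high, and the level without it was 302. *Cxcl2*, a neutrophil attractant, had 1.19, 0.752 and 4.33 cpm, more than 3 times as much in control 3 as in either other library, and its level of 2.55 ± 2.38 became 1.19 without control 3. *Ccl7* (4.95, 5 and 9.8 cpm) and *Cxcl10* (2.52, 3.01 and 4.55 cpm) were also highest in control 3. *Cxcl1*, *Cxcl3*, *Ccl17* and *Ccl20* had no count.

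Neither set of polarization markers held a strong gene, but only 7.35% of all protein-coding genes were strong, and a list of 15 genes is too small to be told apart from that share. Not detected were 20% of the classical and 40% of the alternative markers, beside 42.9% of all protein-coding genes. Of 15 markers of classical activation none was strong and 3 were intermediate, among them the factor *Irf1* (29.5 ± 1.22) and the costimulator *Cd86* (14.8 ± 2.43). *Nos2*, the inducible nitric oxide synthase, had counts of 6, 3 and 3. *Acod1*, which makes itaconate, had 1.15, 1.68 and 3.28 cpm and *Cd40* 5.44, 3.85 and 8.36 cpm, both highest in control 3. Of 15 markers of alternative activation 2 were intermediate, the lectins *Clec10a* (27.6 ± 3.25) and *Mgl2* (14.3 ± 0.955), 7 weak and 6 not detected, and *Arg1*, *Retnla* and *Chil3* had no count. All 22 interferon-stimulated genes were above the limit, but only *Ifi27l2a* (291 ± 54) and *Bst2* (129.9 ± 5.82) were strong. *Oas1a* (72.8 ± 2.96) and *Irf7* (14.6 ± 2.65) were intermediate, *Ifit1* (1.99 ± 0.637) and *Rsad2* (2.08 ± 0.721) weak, and *Mx1* had counts of 3, 4 and 3.

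In antigen presentation the named chain genes differed between the classes. Of 13 MHC class I genes 5 were strong, 7 intermediate and 1 weak. *B2m*, the light chain of class I molecules, had 686, 673 and 584 cpm and a level of 1364 ± 118, and the heavy chains *H2-D1* (710.3 ± 54.7) and *H2-K1* (399 ± 24) were strong, although reads of these polymorphic genes were assigned on a C57BL/6J reference whereas the line is of BALB/c origin. *Tap1* was intermediate at 15.2 ± 1.34 and *Nlrc5*, the class I transactivator, weak at 3.32 ± 0.378. Of 14 class II genes 2 (14.3%) were strong, 1 intermediate, 9 weak and 2 (14.3%) not detected. Of all protein-coding genes 7.35% were strong and 42.9% not detected. *Cd74*, the invariant chain, had 379, 382 and 384 cpm and a level of 514 ± 3.71, and *Ctss*, the protease that trims it, a level of 799.97 ± 76.2. The α and β chain genes *H2-Aa*, *H2-Ab1* and *H2-Eb1* had counts of 3, 2 and 0, of 8, 13 and 9 and of 0, 1 and 0, and *Ciita*, the class II transactivator, had counts of 2, 0 and 4. The level of *Cd74* lay far above all class II chains, without overlap. Reads of the class II chains were assigned on the same C57BL/6J reference, and whether the strain lowered their counts was not tested.

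Most genes of killing and digestion were strong. Of 9 oxidative burst genes 7 were strong, with the NADPH oxidase subunits *Cyba* (702 ± 11.6), *Ncf4* (357 ± 25.9), *Ncf1* (162 ± 8.64) and *Cybb* (124 ± 25.4) among them. *Cybb* had 291, 282 and 402 cpm, control 3 being high, and *Hvcn1*, the proton channel that supports the oxidase in neutrophils, had counts of 0, 3.73 and 3.24. Of 13 phagolysosome genes 10 were strong. *Ctsd* had 6303, 6335 and 5895 cpm, *Ctsb* 4979, 4917 and 4321 cpm, and *Slc11a1*, a metal transporter of phagosomes, a level of 223 ± 13.5. The member not detected was *Cd63*, a tetraspanin of late endosomes, with counts of 1, 0 and 3. Of 10 complement genes 4 were strong: *Cfp*, which encodes properdin, had a level of 380.5 ± 6.67, and the C1q chains *C1qc*, *C1qa* and *C1qb* had 254 ± 8.42, 207 ± 11.6 and 198 ± 8.23. The last 2 overlapped. *C3* was intermediate at 27.5 ± 2.15, and *Serping1*, the C1 inhibitor gene, had no count.

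Most cell cycle genes were strong. Of 21 genes 13 were strong, 5 intermediate, 1 weak and 2 not detected. *Pcna*, the replication clamp, had 584, 590.2 and 606 cpm, and *Mki67*, which marks cycling cells, 918, 986 and 877 cpm. The 5 *Mcm* genes on the list, which encode subunits of the replicative helicase, had levels between 145 and 272. *Ccnd1* (252 ± 27.4) and *Ccnd3* (100 ± 13) were strong and *Ccnd2* (1.65 ± 0.995) weak. *Trp53* had a level of 273 ± 25.1 and its target *Cdkn1a* 116 ± 10.4. *Cdkn2a* and *Cdkn2b*, the neighbouring cell cycle inhibitor genes on chromosome 4, at chr4:89274471-89294653 and chr4:89306299-89311039 of GRCm38, had no count in any library. *Mtap*, a neighbouring gene at chr4:89137122-89181081, had 102, 103 and 112 cpm, and it was chosen after its value was seen. *Myc* had 17, 16.4 and 8.44 cpm, with control 3 low, and a level of 13.9 ± 4.75.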

How the data were processed

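RNAseq was measured in 9 libraries of RAW 264.7 cells, and the 3 untreated ones were used. The authors deposited 1 table of estimated counts per gene, made from BGISEQ-500 paired-end reads with Salmon 0.14.1 on GENCODE M22 (GRCm38.p6) and summarized with tximport. The methods mention scaling by length and library size, but 58.2% of the untreated values over 10 were whole numbers within 1e-06, and 74.9% within 0.01, so the deposited estimated counts were taken as unscaled. Salmon divides reads between similar sequences, which makes close paralogs, pseudogenes and MHC genes uncertain. The methods name no strand setting.

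Gene names, coordinates and lengths came from GENCODE M21 on GRCm38, which matched 54346 of 54432 identifiers. The other 86 held 0.000117% of the counts and carry no name. Depth was 22617191 to 22856792 counts per library. The per-length level was the count over the median length of a gene's basic transcripts, scaled to a sum of 1000000 per library (Python 3.11.15, pandas 2.3.3). For the spread, counts were rounded, a gene entered if 2 or more of the 3 libraries held over 10 counts of it, and edgeR 4.0.16 estimated a common coefficient of variation after TMM scaling in R 4.3.3. DESeq2 1.42.0 size factors were an alternative. Both steps were tested on simulated data, which checks the computation only. The transcript lengths were known there, and the genes made to differ were left out of the coefficient of variation. An order of 2 genes was stated where their 3 libraries did not overlap, and no p-value was computed.

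The genes named are the members of the lists, the 20 nuclear protein-coding genes of highest level, the 10 genes of widest spread among those with at least 10 cpm and the 10 noncoding genes of highest level. The members and lists were chosen with earlier results of these data known. Other genes are marked in the text as chosen after their values were seen. Some list members are counted in the class totals but not reported singly or drawn here.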

Additional observations from a re-analysis of the deposited data

How the results depend on the processing

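No paired analysis was possible because the results come from one group and from no test. The number of genes detected in every library was 13256, and it stayed within 1.5 times of that with more than 10 counts required (11960), with at least 1 cpm required (11210) and with any one library left out (13507 to 13573). The class counts of the 673 list genes also stayed within 1.5 times. With the longest transcript or the exon union as length 31 and 44 genes changed class, without control 1, 2 or 3 it was 13, 9 and 20, with TMM sizes 1, with limits of 50 and 5 it was 85, and no gene moved by more than 1 class. The level of 150 of 498 genes above the limit moved by over 1.5 times with the exon union as length, and of 49 with the longest transcript, so levels of genes with several transcripts are less certain than their SD, and the orders of genes given above were computed for the median length only. Among the genes named above, those that left the strong class under either length were *Abcg1*, *Apobr*, *Cav2*, *Ccnd3*, *Cdkn1a*, *Clec12a*, *Clec5a*, *Dhcr7*, *Fabp5*, *Fcgr2b*, *Il10rb*, *Pla2g4a*, *Ptprc* and *Scarb1*, and those that became weak were *Fabp4*, *Flot1*, *Lmf1*, *Ppard* and *Tbp*. Of the list genes at 1 cpm or more, *Cxcl2* alone moved by over 1.5 times without control 3, and none did without control 1 or 2.

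The common coefficient of variation was 3.35% to 9.91% with one library left out, lowest without control 3, beside 8.32% for all 3. The number of genes over 2-fold apart was 461, and it became 8633 with no count filter, 30 among genes of at least 10 cpm on average with TMM factors estimated again on those genes (32 with the factors used above, 27 of them protein-coding), and 58 to 159 with one library left out, 58 without control 3, where fewer libraries are compared. For the promoter motif, the shorter core AGGAAG was in 50% of the macrophage promoters and in 38.4% of all promoters, and 2 or more matches of the main motif were in 4.55% and in 1.499%.

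At 22617191 to 22856792 counts per library, 3 counts are 0.131 to 0.133 cpm, so transcripts below that are not resolved. A gene at 0 could also be one whose reads were assigned to a copy. Pooled cells give no view of differences between cells, and the levels describe RNA and not protein.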

Other observations

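Genes annotated outside the protein-coding class reached high levels in the untreated cells. By the rule for noncoding genes, the 10 highest were *Gm43305*, *Gm48274*, *Gm26825*, *Ifi30*, *AI506816*, *Gm26880*, *Gm42427*, *AI662270*, *Gm37385* and *Gm42860*. *Gm43305* had 1694, 1817 and 1915 cpm and a level of 4646 ± 284, which became 819.9 with its longest transcript as length. *Ifi30*, which encodes a lysosomal thiol reductase although the annotation used here gives it a noncoding class, had 524, 503 and 519 cpm and a level of 951 ± 18.3. *Gm37385* had 111, 111 and 70 cpm, with control 3 the lowest library.

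The low counts of *Cd63* were set beside other tetraspanins, chosen after its value was seen. *Cd9* had 384, 394 and 394 cpm, *Cd53* 352, 349 and 369 cpm, *Cd81* 236, 226 and 210.3 cpm, *Cd37* 115, 109 and 106 cpm and *Tspan31* 85.5, 88.1 and 86.1 cpm. The pseudogene *Cd63-ps* had no count.

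Counts of 0 were checked in complexes that every cell uses, also after the zeros were seen. Genes were taken by name for the ribosome, proteasome, complex I with its assembly factors, ATP synthase, RNA polymerase II, the CCT chaperonin and V-ATPase. Beside 42.9% of all protein-coding genes, 13 of these 227 were not detected. These were *Rpl10l*, *Rpl39l*, *Psma8*, *Psmb11*, *Ndufa4l2*, *Cct6b*, *Cct8l1* and 6 V-ATPase genes, *Atp6v0a4*, *Atp6v1b1*, *Atp6v1c2*, *Atp6v1e2*, *Atp6v1fnb* and *Atp6v1g3*. Several of these, such as *Psmb11* of the thymus and *Psma8* of the testis, are known as isoforms of particular tissues.

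Among the 10 genes of widest spread, 5 were not protein-coding. *Gm42605* had 0, 35.9 and 18.2 cpm and *Gm42634* 49, 0 and 17 cpm, each with 1 library at 0. The pseudogenes *Rpl14-ps1* (5.79, 35.1 and 8.62 cpm), *Tpt1-ps3* (41.3, 99.8 and 22.2 cpm) and *Gm28437* (468, 139 and 281 cpm) varied between control 1 and 2 as well, unlike *Tent5c*, *Traf1*, *Il7r* and *Ptpn14*, in which control 3 was the highest library. *Rps27* had 24.6, 17.6 and 9.02 cpm.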
